A study of Rattus norvegicus with 6 samples.

Results

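Transcripts of corticosteroid receptors, corticosteroid-metabolising enzymes and the corticotropin-releasing hormone (CRH) family were examined in whole hippocampus of high and low avoidance rats. The 10 genes considered were Nr3c1, Nr3c2, Hsd11b1, Hsd11b2, Sgk1, Crh, Crhr1, Crhr2, Crhbp and Ucn. A probe set was taken when the array's annotation named 1 gene for it and that gene was among the 10. This gave 12 of 8799 probe sets, covering 8 of the 10 genes. Nr3c1 had 3 probe sets, Nr3c2 and Crhbp had 2 each, and the other genes had 1 each. The CRH receptors Crhr1 and Crhr2 had no probe set under that rule and were not analysed here.

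The Syracuse High Avoidance (SHA) and Syracuse Low Avoidance (SLA) lines are selectively bred rats named for how well they learn to prevent a shock by moving across a shuttle box when a warning signal is given. Each line was represented by 3 pools of hippocampi, each from 3 rats, and each pool was read on its own 1-colour oligonucleotide array. Every rat of both lines had been through avoidance testing and was killed 2 weeks later. The lines differ in breeding and may also differ in what the rats met during testing, such as the shocks received. These cannot be told apart here. The sources used here state neither age nor sex nor the rats' own avoidance scores. The labels do not say that pools were drawn from separate batches of animals, so p-values measure the spread between these pools.

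Corticosterone, the main glucocorticoid of the rat, acts in hippocampal neurons through a pair of nuclear receptors. The mineralocorticoid receptor binds it with high affinity and is occupied at resting hormone levels, and the glucocorticoid receptor is filled mainly during stress and at the daily peak. The enzymes Hsd11b1 and Hsd11b2 set the hormone level inside the cell, the first by regenerating active steroid and the second by inactivating it. CRH is best known as the hypothalamic peptide that starts the hormonal stress response, and in the hippocampus it is also made by local interneurons.

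None of the corticosteroid or CRH-family transcripts differed between the lines past the test's threshold. Values are linear intensities as deposited, and differences are log2 SHA minus SLA with the standard error from limma, a linear model with moderated variances. A difference of 1 on this scale is a 2-fold change. Of the 12 probe sets, 8 were bright enough to be tested and 4 fell among the dimmest 25% of the array (a mean log2 intensity under 4.70) and are described without a test. Among the 8, none had an adjusted p under 0.05 (0.00% of all 6555 probe sets tested), and none had an unadjusted p under 0.05 (1.50% of all). Adjusted p was 1.00 for each of the 8, after Benjamini-Hochberg correction over the 6555. With the pool number as a block, 5.26% of all had an unadjusted p under 0.05 in limma, as did 1 of the 8, Hsd11b1. The fit without the block thus called fewer probe sets at that limit. Of all 12, 9 were higher and 3 lower in SHA, and the median difference of the 8 tested was 0.22, beside -0.01 over all probe sets tested. These figures only describe the set, since probe sets of 1 gene are not independent and the brightness filter chose which were tested. The filter lay close to Crh, whose mean log2 intensity of 4.77 (5.43 in SHA and 4.11 in SLA) passed through its SHA pools.

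**Figure D1:**
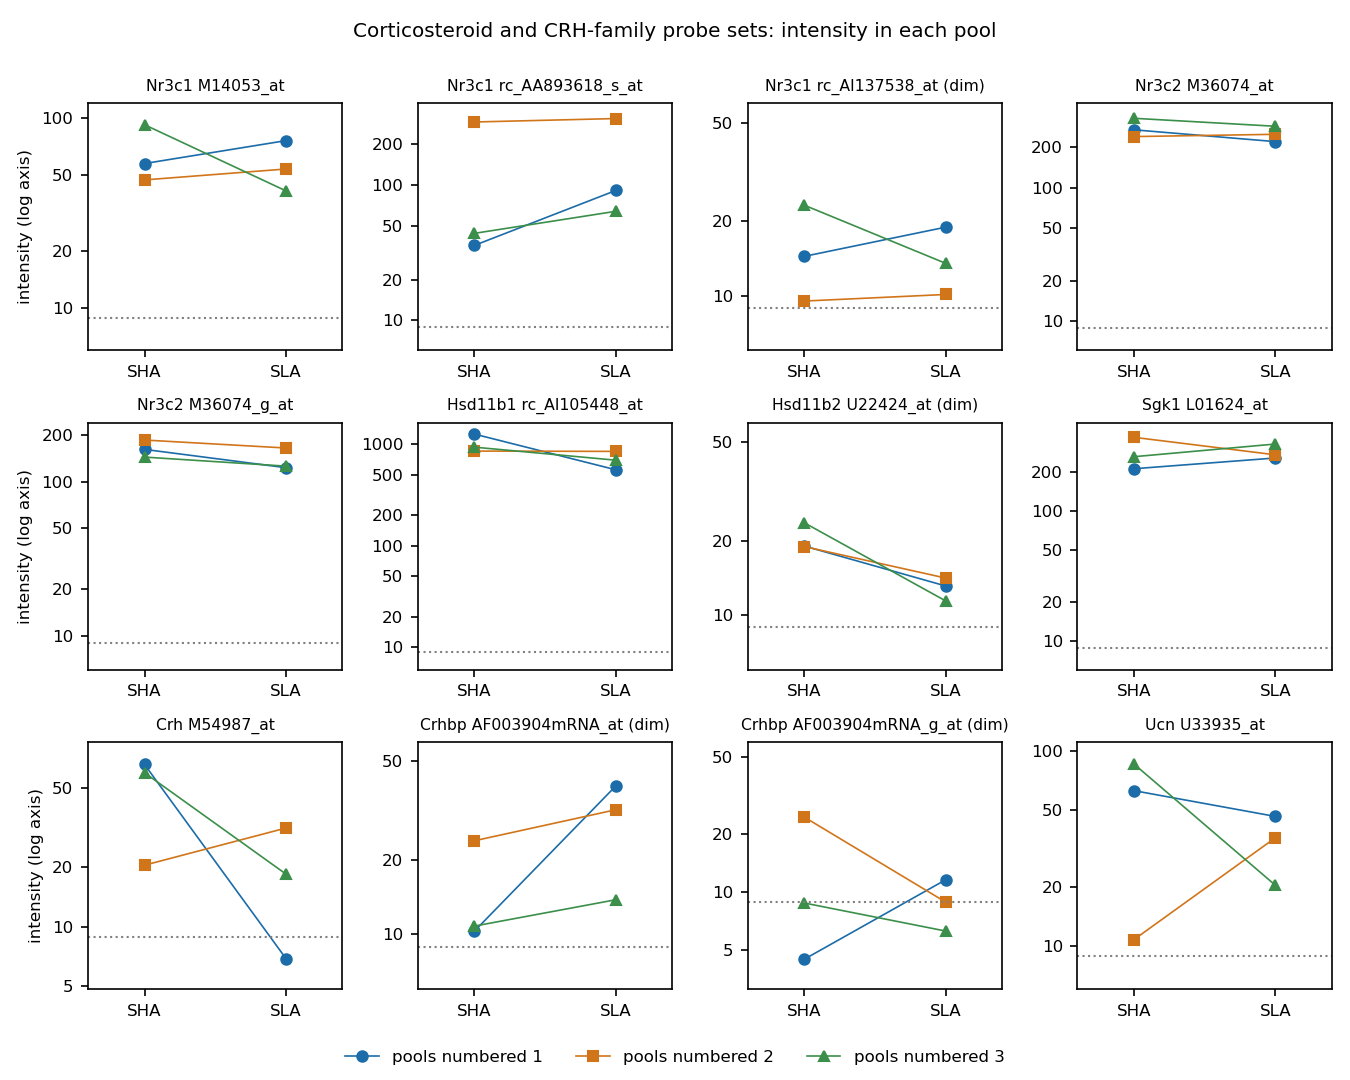
Intensity (log axis, linear values as deposited) of the 12 probe sets in each pool. Symbols and colours mark the pool number, lines join same-numbered SHA and SLA pools, the dotted line is the floor of 8.9, and "dim" marks the 4 probe sets that were not tested. The 3 SHA pools lie above the 3 SLA pools for Hsd11b1 and Hsd11b2, while the pools of the lines overlap in the other 10 panels.

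The glucocorticoid receptor Nr3c1 was read by 3 probe sets that did not behave alike. M14053_at read 57.8, 47.4 and 92.5 in SHA pools 1, 2 and 3 and 76.3, 54.1 and 41.5 in SLA pools 1, 2 and 3. SHA pool 3 was the highest and SLA pool 3 the lowest, with the other pools of both lines in between. The difference was 0.19 ± 0.52 (95% interval -0.97 to 1.35).

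The probe set rc_AA893618_s_at of Nr3c1 read 35.7, 290.3 and 43.8 in SHA and 90.7, 307.8 and 63.7 in SLA. Both pools numbered 2 stood far above the other 4, whichever the line. The difference of -0.66 ± 0.85 therefore carried a wide 95% interval, from -2.58 to 1.26. Within the pool numbers 1, 2 and 3 the difference was -1.35, -0.08 and -0.54, lower in SHA each time. With the pool number as a block it was -0.66 ± 0.37 (adjusted p = 0.83 in limma). Without SLA pool 2 it was 0.02, and without SHA pool 2 it was -1.62 (adjusted p = 1.00 in limma). The suffix _s_at marks a probe set whose probes can match more than 1 transcript sequence.

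The pools numbered 2 also stood apart in the arrays' antisense control probe sets for Gapdh and beta-actin. Their geometric mean was 30.1 in SHA pool 2 and 21.3 in SLA pool 2, against 219 to 1432 in the other 4 pools. The part of this array difference in the rc_AA893618_s_at values was not tested. The third Nr3c1 probe set, rc_AI137538_at, was dim, at 14.4, 9.5 and 23.2 in SHA and 18.9, 10.1 and 13.5 in SLA. Its 3 highest pools were SHA pool 3, SLA pool 1 and SHA pool 1, the same 3 in the same order as for M14053_at. The untested difference was 0.10.

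The mineralocorticoid receptor Nr3c2 gave steadier values on its 2 probe sets. M36074_at read 271, 241.1 and 330.7 in SHA and 221, 250.8 and 288.1 in SLA, and the lines overlapped. The difference was 0.15 ± 0.27 (95% interval -0.47 to 0.76). M36074_g_at read 162.4, 186.8 and 144.7 in SHA and 123.5, 165.8 and 126.4 in SLA. Each SHA pool was above the SLA pool of the same number, by 0.40, 0.17 and 0.20, yet the lines overlapped because SLA pool 2 was above SHA pools 1 and 3. The difference was 0.25 ± 0.33 (95% interval -0.48 to 0.99). The within-line SD of both probe sets was 0.21 on the log2 scale, against a median of 0.52 over all probe sets tested. Their intervals in this fit exclude a 2-fold difference in either direction, that of M36074_g_at only narrowly, with 0.99 against 1. Over the alternative settings the difference of M36074_g_at ran from 0.16 to 0.39.

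Hsd11b1, the reductase that regenerates corticosterone from its inactive keto form, was the member nearest to a difference in the test. Its probe set rc_AI105448_at read 1249.8, 850.7 and 929.5 in SHA and 557.1, 844.4 and 692 in SLA. All 3 SHA pools were above all 3 SLA pools, but SHA pool 2 and SLA pool 2 were nearly equal. The mean was 1010 ± 211 in SHA and 698 ± 144 in SLA (SD, n = 3 pools each), a 1.45-fold higher level in SHA. The difference was 0.53 ± 0.26 (adjusted p = 1.00 in limma, 95% interval -0.04 to 1.11), and 2.2% of the probe sets tested ranked ahead of it in the test. Of the 8 members tested it was the only probe set whose lines did not overlap, where 5.66% of all probe sets tested did not.

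The separation of Hsd11b1 rested on that narrow gap between the pools numbered 2. After quantile normalization and after median centring the lines overlapped, with differences of 0.53 and 0.59, and no member tested was left without overlap, where 6.01% and 4.91% of all probe sets were. Within the pool numbers 1, 2 and 3 the difference was 1.17, 0.01 and 0.43. With the pool number as a block the adjusted p was 0.83 in limma and the unadjusted p was under 0.05, where 5.26% of probe sets had an unadjusted p under 0.05. With array weights the adjusted p was 0.88 in limma and the unadjusted p again under 0.05, where 5.40% of probe sets had an unadjusted p under 0.05. With block and weights together the difference was 0.21 (adjusted p = 0.63 in limma), and with no intensity trend it was 0.53 (adjusted p = 1.00 in limma), neither with an unadjusted p under 0.05. Without both pools numbered 1 the difference was 0.22. In bulk tissue a difference in the number of cells that make a transcript and a difference in the RNA per cell cannot be told apart.

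Hsd11b2, the dehydrogenase that inactivates corticosterone and in kidney shields the mineralocorticoid receptor from it, read close to the bottom of the array. U22424_at was at 19, 18.9 and 23.6 in SHA and 13.1, 14.1 and 11.4 in SLA. All SHA pools lay above all SLA pools and the spread within a line was small, at 20.5 ± 2.69 and 12.9 ± 1.37 (SD, n = 3 pools each). The untested difference was 0.67, or 1.59-fold higher in SHA, and it was 0.54, 0.42 and 1.05 within the pool numbers. When no probe set was filtered out, limma gave it an adjusted p of 1.00 and an unadjusted p under 0.05, as for 2.32% of 8740 probe sets. All 6 values lie under 25.8, the 25th percentile of the intensities, so with the floor set there the difference was 0.00. With no floor and an offset of 16 added it was 0.34.

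Sgk1, a kinase gene that both corticosteroid receptors induce, showed no direction. L01624_at read 210.6, 367.1 and 260.6 in SHA and 254.7, 269.4 and 326.1 in SLA. The SHA pools held both the lowest and the highest value. The difference was -0.05 ± 0.30 (95% interval -0.72 to 0.62), and its sign turned under 5 of the 19 alternative settings. The interval excludes a 2-fold difference in either direction, as it did for the 2 probe sets of Nr3c2 (narrowly for M36074_g_at), and for none of the other 5 probe sets tested.

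**Figure D2:**
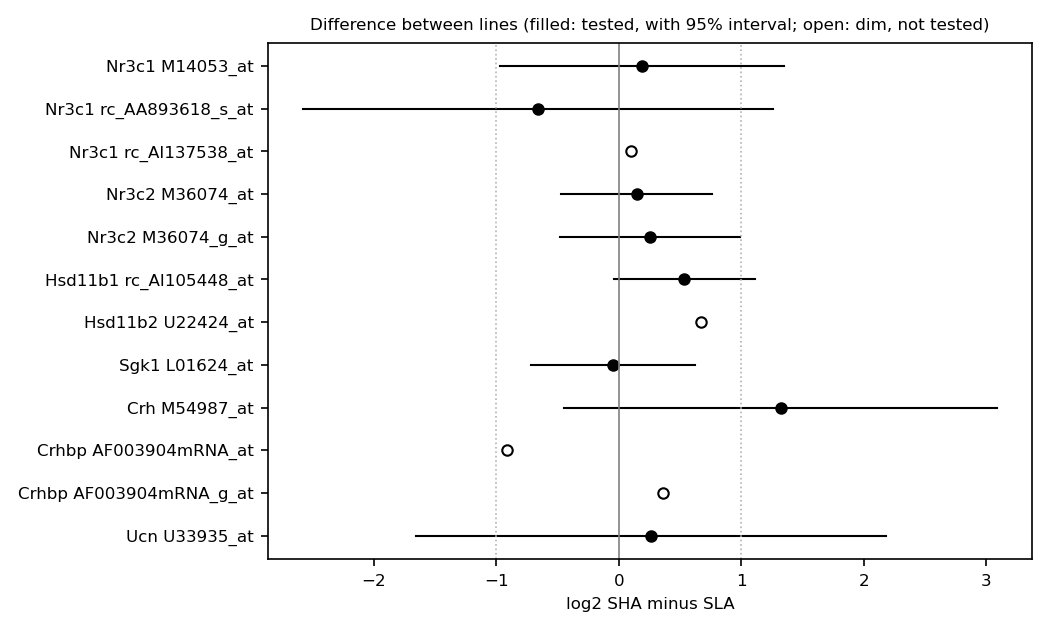
Difference between lines (log2 SHA minus SLA) for each probe set. Filled points are tested probe sets with their 95% interval from limma, open points are the 4 dim probe sets without a test, and dotted lines mark a 2-fold difference. Every interval spans 0, the interval of Hsd11b1 reaching from -0.04 to 1.11 and that of Crh from -0.45 to 3.09.

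Crh, the CRH precursor, scattered widely within both lines. M54987_at read 65.7, 20.4 and 59.7 in SHA and 6.9, 31.4 and 18.4 in SLA. SHA pools 1 and 3 were clearly above every SLA pool, but SHA pool 2 was below SLA pool 2, and SLA pool 1 was under the floor of 8.9. The difference was 1.32 ± 0.79 (adjusted p = 1.00 in limma, 95% interval -0.45 to 3.09), or 2.50-fold with SLA pool 1 set to the floor. Within the pool numbers 1, 2 and 3 it was 2.88, -0.62 and 1.70. The difference was 0.84 without SLA pool 1, 1.86 without SHA pool 2, 0.54 without both pools numbered 1, and 0.14 with the pool number as a block together with array weights. Raising the floor to 25.8 gave 0.76.

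Crh is made by interneurons in the hippocampus and by neurons of neighbouring regions. Interneuron markers, 9 probe sets of 7 genes, summed to an intensity of 3059, 3714 and 5252 in SHA pools 1, 2 and 3 and 3018, 3275 and 4520 in SLA. Single markers did not all follow the sum. Of the 9 probe sets 7 were higher and 2 lower in SHA, with a median difference of 0.14 (0.16 and 0.20 under the 2 other scalings, and 0.29 without both pools numbered 1). Between the pools numbered 1, Vip differed by 1.75 and Gad1, which makes the transmitter GABA, by 1.12. Slc32a1 on AF030253_at differed by 0.24 and Sst on M25890_at by 0.11. The rest were lower in SHA pool 1, namely Pvalb (-0.66), Slc32a1 on rc_AA996551_s_at (-0.60), Reln (-0.48), Gad2 (-0.42) and Sst on K02248cds_s_at (-0.41). Markers of hypothalamus, striatum and midbrain, 17 probe sets of 11 genes, summed to 1536, 906 and 1797 in SHA and 2160, 1095 and 1489 in SLA. The part of either marker group in the Crh values was not tested. Of the neighbouring-region markers, the hypothalamic peptide gene Pmch read between 2.8 and 34 over the 6 pools and Avp, on its brightest probe set M25646_at, between 107.9 and 434.1.

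Ucn encodes urocortin, a peptide related to CRH that binds both CRH receptors. U33935_at read 62.8, 10.8 and 86 in SHA and 46.3, 36 and 20.5 in SLA. As for Crh, SHA pools 1 and 3 were the 2 highest, and here SHA pool 2 was the lowest of all. The difference was 0.26 ± 0.85 (95% interval -1.66 to 2.18), with 0.44, -1.74 and 2.07 within the pool numbers. It was -0.09 without SHA pool 1 and -0.32 without SHA pool 3.

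Crhbp, the secreted protein that binds CRH and urocortin and keeps them from their receptors, had 2 dim probe sets of opposite sign. AF003904mRNA_at read 10.3, 23.9 and 10.8 in SHA and 39.8, 31.9 and 13.8 in SLA. SHA was lower within each pool number, by -1.95, -0.42 and -0.35, and the lines overlapped through SHA pool 2. The untested difference was -0.91, and -0.31 with the floor at 25.8. AF003904mRNA_g_at read 4.5, 24.5 and 8.8 in SHA and 11.6, 8.9 and 6.3 in SLA, with 4 of 6 pools at or under the floor. Its untested difference of 0.36 rested on SHA pool 2, without which it was -0.13.

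**Figure D3:**
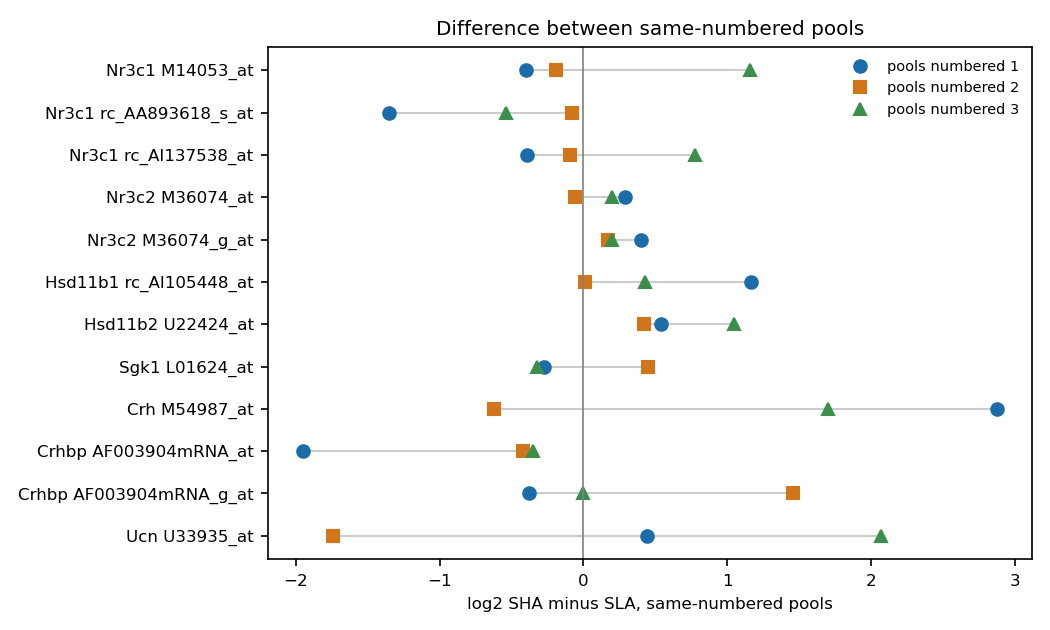
Difference (log2 SHA minus SLA) between the pools that share a number, for each of the 12 probe sets. Hsd11b2, the g_at probe set of Nr3c2 and Hsd11b1 lie at or above 0 for all 3 numbers, and the s_at probe set of Nr3c1 and the first of Crhbp below 0, while the points of Crh run from -0.62 to 2.88 and those of Ucn from -1.74 to 2.07.

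The members differed in how much of their variation went with line and with pool number. Pool number accounted for a median of 62.4% of the variance of log2 intensity over all probe sets tested, and line for a median of 7.6%. Line accounted for 85.4% in Hsd11b2, 55.1% in Hsd11b1 and 43.3% in Crh, and pool number for 0.5%, 0.9% and 4.0% there. Pool number accounted for 88.3% in Nr3c1 on rc_AA893618_s_at, 69.4% in Nr3c2 on M36074_at, 69.3% in the dim Nr3c1 probe set and 52.7% in Sgk1. Nr3c2 on M36074_g_at (35.0% line, 59.6% pool number) and Crhbp on AF003904mRNA_at (35.6% and 40.8%) had a share of each. Most of the variance lay with neither in Nr3c1 on M14053_at (5.7% and 17.7%), Ucn (1.6% and 37.9%) and Crhbp on AF003904mRNA_g_at (11.3% and 33.5%), and in Crh the remainder was larger than the share of line. Pool number has 3 levels and line has 2, so with no effect of either, pool number would on average take the larger share. With 3 pools a line these shares describe the 6 arrays and no test was made of them. Counting dim members too, 2 of the 12 probe sets had lines that did not overlap, both genes of the Hsd11b enzymes and both higher in SHA. Without the filter 5.15% of all probe sets did not overlap, 1.85% of all being higher in SHA. Leaving out SHA pool 2 raised the count among the members tested from 1 to 4 (Hsd11b1, Crh, Ucn and Nr3c1 on rc_AA893618_s_at), where 14.6% of all probe sets then did not overlap. Leaving out SLA pool 2 gave 2 of the 7 then tested, Hsd11b1 and Nr3c2 on M36074_g_at, where 15.7% did not. Crh fell under the filter there, and its SHA pools, from 20.4 up, lay above SLA pools 1 and 3, at 6.9 and 18.4. Crh also went untested without SHA pool 1 and without SHA pool 3. Leaving out pool 1 or 3 gave 1 each time, where 13.5% (SHA pool 1), 15.1% (SHA pool 3), 14.1% (SLA pool 1) and 10.8% (SLA pool 3) did not. An unadjusted p under 0.05 was reached by 1 member without SHA pool 2 (Nr3c1 on rc_AA893618_s_at, where 2.30% of all probe sets did) and by 1 without SLA pool 2 (Hsd11b1, where 2.32% did), with an adjusted p of 1.00 in limma for both. None reached it without another single pool, where 0.946% (SHA pool 1), 1.98% (SHA pool 3), 1.53% (SLA pool 1) and 0.870% (SLA pool 3) of all probe sets did.

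Other genes of the pathway were taken from 4 lists, of which 71 of 109 genes had a probe set and 85 of 118 probe sets were tested. None had an adjusted or an unadjusted p under 0.05 in limma. With the pool number as a block 2 of the 85, a probe set each of Fkbp4 and Cyp21a1, had an unadjusted p under 0.05, where 5.26% of all probe sets did. With block and weights together 11 did, where 13.3% of all probe sets did, with no intensity trend 1 did, where 2.00% did, and without both pools numbered 1 the count was 2, against 1.11% of all. Of the 85, 42 were higher and 43 lower in SHA with a median of -0.01, the same as over all probe sets tested, and 3 did not overlap between lines (3.53%, where 5.66% of all probe sets tested did not). Among those 3, Pgr on S68284cds_at passed the brightness filter through its SLA pools.

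Chaperones and immunophilins, among them those that hold the receptors ready for hormone, lay mostly on the higher side. Of 21 probe sets of 10 genes, 16 were higher and 5 lower in SHA, with a median of 0.16. The median was 0.19 after quantile normalization and 0.21 after median centring. Without both pools numbered 1, 14 were higher and 7 lower, with a median of 0.20. Probe sets of 1 gene are not independent, so these counts only describe the list. None of the 21 probe sets separated the lines. The largest difference was in Fkbp4, the immunophilin that helps carry the receptor to the nucleus, with 190 ± 40.7 in SHA and 122 ± 68.7 in SLA on rc_AI136977_at (0.84 ± 0.53, and adjusted p = 0.83 in limma with the pool number as a block). That probe set read 144.6, 201.9 and 223.3 in SHA and 43.9, 172.5 and 150 in SLA, and without SLA pool 1, the low value, the difference was 0.22. The other 2 probe sets of Fkbp4 differed by 0.30 and 0.22. The lowest was St13, an Hsp70-interacting cochaperone, at -0.30 ± 0.39 (0.01 without SLA pool 2), while its second probe set differed by 0.03.

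Genes known to respond to corticosteroids were split, with 10 of 24 probe sets higher and 14 lower and a median of -0.08. The clock gene Per2 was the highest, at 0.47 ± 0.50 (0.03 without SLA pool 1), and the AP-1 gene Fosl2 the lowest, at -0.72 ± 0.48. Cebpd, a transcription factor induced by glucocorticoids, was lower in every SHA pool on M65149_at, at 110 ± 3.5 against 122 ± 10.9, by -0.14 ± 0.35. Its other tested probe set overlapped, with a difference of -0.10. Fkbp5, Tsc22d3 and Per1, which are widely used as indicators of glucocorticoid action, were not analysed here.

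Coregulators, steroid enzymes and related receptors had 5 of 13 probe sets higher and 8 lower, with a median of -0.19. Pgr, the progesterone receptor, read 24.7 ± 14.3 in SHA and 50.1 ± 4.96 in SLA on S68284cds_at without overlap (-1.17 ± 0.65), and its other 2 tested probe sets differed by 0.09 and -0.67 with overlap. The mean log2 intensity of S68284cds_at was 4.47 in SHA and 5.64 in SLA, so it passed the filter at 4.70 through its SLA pools. Cyp21a1, the steroid hydroxylase, was the highest of the list, at 0.84 ± 0.51 (adjusted p = 0.83 in limma with the block).

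Other peptides and receptors of the stress axis had 11 of 27 probe sets higher and 16 lower, a median of -0.06 that was 0.01 after quantile normalization. Vip, a peptide of hippocampal interneurons, read 82.8, 66.2 and 90.7 in SHA and 24.6, 53.8 and 59.9 in SLA. The lines did not overlap, and the difference was 0.88 ± 0.53, or 0.48 without SLA pool 1. Adcyap1r1, the receptor of the peptide PACAP, was the lowest, at -0.71 ± 0.49 on D14908_s_at, with -0.02 and -0.54 on its other probe sets.

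**Figure D4:**
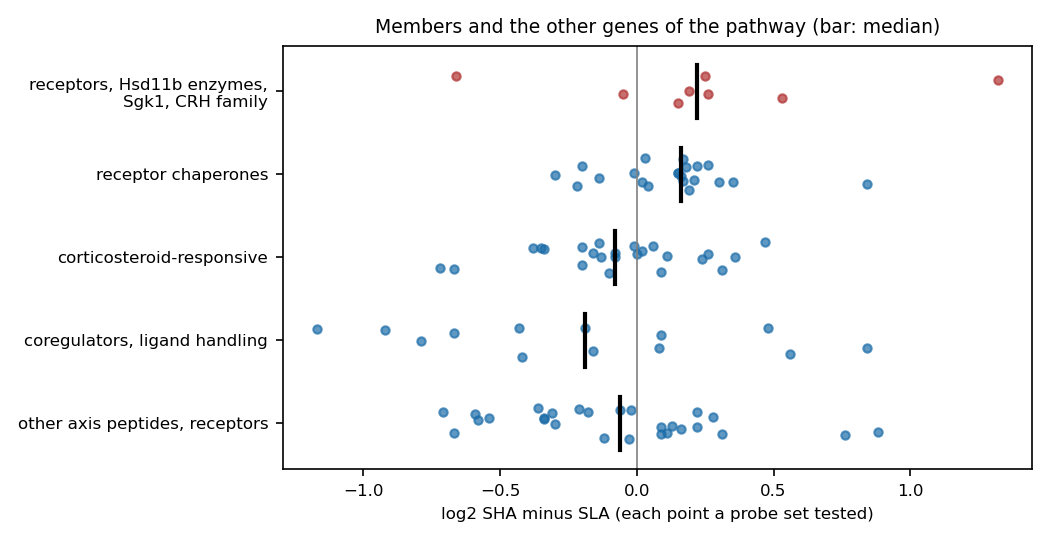
Differences between lines (log2 SHA minus SLA) for the 8 tested probe sets of the receptors, Hsd11b enzymes, Sgk1 and CRH family and for the tested probe sets of the 4 lists of other pathway genes. Each point is a probe set, scattered vertically for legibility, and the black bar is the median, at 0.22 for the members and between -0.19 and 0.16 for the lists.

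Neuronal markers read above the floor in every pool, and some marker groups leaned with the lines. The neuronal list mixed hippocampal with general neuronal genes, so it was not a check of the dissection. The 22 probe sets of 11 hippocampal and general neuronal genes summed to 18594 to 21538 in the SHA pools and 15366 to 20122 in the SLA pools. Of them 19 were higher and 3 lower in SHA (median 0.19, and 0.23 and 0.24 under the 2 other scalings), the same side as Hsd11b1, Hsd11b2 and Crh, and the interneuron markers given above leaned that way too. Without both pools numbered 1, 16 of the 22 neuronal probe sets were higher and 6 lower (median 0.18). Neighbouring-region markers were lower in SHA on 11 of the 13 probe sets tested (median -0.26), and on 10 of 12 without both pools numbered 1 (median -0.14). Glial, immune and vessel markers were lower on 16 of 26 (median -0.19), and on 20 of 27 without both pools numbered 1. Of the 26, 3 were lower at an unadjusted p under 0.05 in limma (11.5%, where 1.50% of all probe sets were called). None had an adjusted p under 0.05. Lines did not overlap in 3 of the 26, all lower in SHA (11.5%, where 5.66% of all did not overlap). Choroid plexus markers were split 5 to 5, or 6 higher and 4 lower under the 2 other scalings. The part of these shifts in the differences above was not tested. The added bacterial and phage controls also varied. Their geometric mean intensity was 5458, 1121 and 2279 in SHA pools 1, 2 and 3 and 12282, 640 and 1564 in SLA. In both lines pool 1 was the highest and pool 2 the lowest. The part of this array difference in the values above was not tested. Arrays correlated at 0.846 to 0.973 with one another over probe sets, so none was a copy of another. Precision is limited by there being 3 arrays a line.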

How the data were processed

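Total RNA of 6 hippocampal pools was measured on 6 oligonucleotide arrays. The deposited values are linear intensities, 1 for each probe set on an array. From the values, each array had been scaled to a common level (2%-trimmed mean 250.3 to 250.4). No source used here states the software or the scaling target. The 59 array controls were set aside, values under a floor of 8.9 (the 10th percentile) were raised to it, log2 was taken, and the dimmest 25% of probe sets by mean were left out, leaving 6555 of 8740. Symbols came from the platform annotation, updated by gene number (6985 of 7006 matched in GRCr8). The test was limma 3.58.1 (R 4.3.3), two-sided, its prior variance following intensity, tested first on simulated data. The simulated arrays were drawn independently, with no effect shared by same-numbered pools, so that check does not cover such an effect. The titles number the pools 1 to 3 in each line. The pools numbered 1 and those numbered 2 deviated together from their line means (r = 0.44 and 0.68), which the labels do not explain. For the pools numbered 3 r was 0.13, no higher than the 0.16 of SHA pool 3 with SLA pool 1. Pools of unlike number had r from -0.56 to 0.16. The reported errors and intervals come from the fit without the pool number; the fit with it as a block is an alternative, given where it changes a value's standing. The members, the lists and the alternatives were chosen with earlier results of these data known. All member probe sets are named; of the other pathway genes, those at an unadjusted p under 0.05 or with lines that did not overlap, and the highest and lowest of each list. Second probe sets of a named gene, Fkbp5, Tsc22d3 and Per1 were named beyond this rule.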

Additional observations from a re-analysis of the deposited data

How the results depend on the processing

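Under the 19 alternative settings no member passed an adjusted p under 0.05. The 8 tested members gave 146 values, of which 133 kept their direction and 13 turned it, none of them past the threshold, and the stricter filter and some left-out pools removed the dimmer ones. Nr3c1 on M14053_at turned to -0.00 with block and weights, -0.09 without SHA pool 3 and -0.02 without SLA pool 3 (-0.09 to 0.42 over the single pools left out), and on rc_AA893618_s_at to 0.02 without SLA pool 2 (-1.62 to 0.02). Sgk1 turned to 0.00 with median centring, 0.24 with block and weights, 0.06 without both pools numbered 1, 0.13 when SHA pool 1 was left out and 0.05 for SLA pool 3 (-0.27 to 0.13). Ucn turned to -0.89 with block and weights, -0.09 without SHA pool 1, -0.32 for SHA pool 3 and -0.07 for SLA pool 3 (-0.32 to 1.18). The cause was not tested. Members whose lines did not overlap numbered 1 in the setting reported, where 5.66% of all probe sets tested did not. They numbered 0 after quantile normalization or median centring (6.01% and 4.91% of all), and 2 with no filter (5.15%). With 1 pool left out they numbered 1 to 4, the 4 without SHA pool 2, and 10.8% to 15.7% of all probe sets did not overlap. Members at an unadjusted p under 0.05 numbered 0 in the setting reported (1.50% of all probe sets) and 1 with no filter (2.32%). They numbered 1 with array weights (5.40% of all), 1 with the pool number as a replicate block (5.26%), and 0 to 1 with 1 pool left out (0.870% to 2.32%). Pathway probe sets at that limit numbered 0 as reported (1.50% of all probe sets), 1 with no intensity trend (2.00%) and 4 when arrays were weighted (5.40%). There were 2 under the replicate block (5.26% of all), 11 under both together (13.3%) and 2 without both pools numbered 1 (1.11%). With 1 pool left out there were 0 to 1 (0.870% to 2.32% of all). The block changed no call past the adjusted threshold. Of the dim members, Hsd11b2 moved by more than the spread between pools, to 0.00 and 0.34 with the higher floor and with the offset of 16. The dim Nr3c1 probe set rc_AI137538_at turned to -0.23 without SHA pool 3 and -0.12 without SLA pool 2, and Crhbp on AF003904mRNA_g_at to -0.13 without SHA pool 2. Crhbp on AF003904mRNA_at was -0.50 with the offset. Values near the floor of 8.9 limit Hsd11b2, Crhbp and Crh.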
